A study of Mus musculus with 15 samples.

Results

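Sterols and fatty acids are built in the cell from acetyl-CoA, and 8 genes of these routes were followed in the kidney of aging mice: Srebf1, Srebf2, Hmgcs1, Sqle, Idi1, Fasn, Scd1 and Scd2. They were chosen by name, and all 8 were present among the 33058 gene names of the deposited transcript table. A gene's level was the sum of the FPKM (fragments scaled to transcript length and library size) of its listed transcripts, 41 of 129029 in all. The series holds kidney RNA of 15 male mice on standard chow, labelled C57BL/6 (the paper names C57BL/6J), 1 library per mouse, with 5 mice each at 3, 12 and 24 months of age and no other treatment. The mice are numbered 5 to 9, 17 to 21 and 31 to 35 in the order of these ages. The study set young mice of 3 months against old mice of 24 months. The aligned bases behind a library ranged from 5.03 to 6.13 Gb at 3 months, from 5.84 to 8.03 Gb at 12 months and from 6.07 to 7.33 Gb at 24 months. Kidney tissue and not sorted cells was sequenced, so fewer cells of a type and less RNA per cell cannot be told apart. Markers of the labelled tissue were present in every mouse, and Lrp2, Slc34a1, Slc5a2 and Slc22a6 of the proximal tubule summed to between 1219 and 1770 FPKM.

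SREBP-1 and SREBP-2, encoded by Srebf1 and Srebf2, are transcription factors that are held in the endoplasmic reticulum membrane while sterols are plentiful. When sterols run low, the protein Scap carries them to the Golgi, proteases release their active part, and genes of lipid synthesis and uptake are switched on. SREBP-2 acts mainly on sterol genes and SREBP-1 mainly on fatty acid genes. Hmgcs1 makes HMG-CoA, Idi1 isomerises the isoprene unit and Sqle adds oxygen to squalene on the way to cholesterol. Fasn builds palmitate, and Scd1 and Scd2 place a double bond into saturated fatty acids. SREBPs bind sterol regulatory elements, usually beside sites of the CCAAT-binding factor NF-Y.

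The promoters of 4 of these genes are shown because the levels of Idi1 and Fasn were correlated over the mice, Hmgcs1 was the most abundant of the 8, and Srebf2 encodes the factor of the sterol genes. The sequences are from RefSeq (GRCm38.p6), read 5′ to 3′ on the strand of the gene, and each covers the 250 bases before the annotated start. They lie at chr13:119690101-119690350 (plus strand), chr13:8885356-8885605 (plus strand), chr11:120824548-120824797 (minus strand) and chr15:82147019-82147268 (plus strand), in the order printed. Capitals mark TCACNCCAC, the shorter TCACCCCA that overlaps it, and CCAAT, each searched on both strands, so that CCAAT on the other strand reads ATTGG.
Hmgcs1: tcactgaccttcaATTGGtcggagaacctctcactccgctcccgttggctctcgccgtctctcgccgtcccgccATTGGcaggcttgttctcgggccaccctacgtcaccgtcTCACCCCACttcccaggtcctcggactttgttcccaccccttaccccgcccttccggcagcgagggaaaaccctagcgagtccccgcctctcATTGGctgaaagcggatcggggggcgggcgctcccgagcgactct
Idi1: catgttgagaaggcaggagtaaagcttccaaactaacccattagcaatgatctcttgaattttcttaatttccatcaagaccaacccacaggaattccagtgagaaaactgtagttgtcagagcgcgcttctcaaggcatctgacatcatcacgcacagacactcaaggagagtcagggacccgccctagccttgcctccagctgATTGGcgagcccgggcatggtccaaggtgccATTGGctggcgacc
Fasn: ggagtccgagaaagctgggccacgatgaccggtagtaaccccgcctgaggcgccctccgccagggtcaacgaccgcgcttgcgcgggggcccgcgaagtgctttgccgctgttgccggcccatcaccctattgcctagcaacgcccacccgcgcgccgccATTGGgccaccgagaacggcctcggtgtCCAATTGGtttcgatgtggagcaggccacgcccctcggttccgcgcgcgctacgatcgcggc
Srebf2: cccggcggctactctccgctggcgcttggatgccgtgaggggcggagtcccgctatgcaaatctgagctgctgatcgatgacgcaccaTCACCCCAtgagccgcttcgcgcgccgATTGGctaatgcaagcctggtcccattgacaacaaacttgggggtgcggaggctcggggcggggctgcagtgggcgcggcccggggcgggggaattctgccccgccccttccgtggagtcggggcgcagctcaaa
TCACNCCAC was found in 1.05% of the 32851 promoter windows of the same length, TCACCCCA in 1.34% and CCAAT in 33.8%. Of the 4 windows shown, Hmgcs1 held TCACCCCAC once, between 137 and 129 bases before the start, with CCAAT 3 times. Srebf2 held TCACCCCA, between 162 and 155 bases before the start, and CCAAT once. The Idi1 window held CCAAT 2 times and the Fasn window 3 times, with 2 of the Fasn matches overlapping, and neither window held the other letters. The windows of Srebf1, searched but not shown, held neither TCACNCCAC nor TCACCCCA. No windows were available for Sqle, Scd1 and Scd2. These matches are descriptions of letters and not of binding.

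At the gene level, none of the 8 genes had an adjusted p under 0.05 in any comparison of ages, beside 1.22% of all genes between 3 and 24 months, 0.25% between 3 and 12 and 0.0031% between 12 and 24. Hmgcs1 was the most abundant of the 8 genes per length (79.6 FPKM on average over 15 mice), and Fasn the least (9.77 FPKM). Between them lay Scd1 at 75.8, Idi1 at 25.8, Sqle at 17.6, Scd2 at 13.3, Srebf2 at 13.03 and Srebf1 at 10.99 FPKM. Some neighbours in this order were not separated by the spread. Hmgcs1 exceeded Scd1 in 8 of 15 mice, Sqle exceeded Scd2 in 8 and Scd2 exceeded Srebf2 in 9. By contrast Scd1 exceeded Idi1 in 14 of 15 mice, Idi1 exceeded Sqle in 14 and Srebf2 exceeded Srebf1 in 13.

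**Figure D1:**
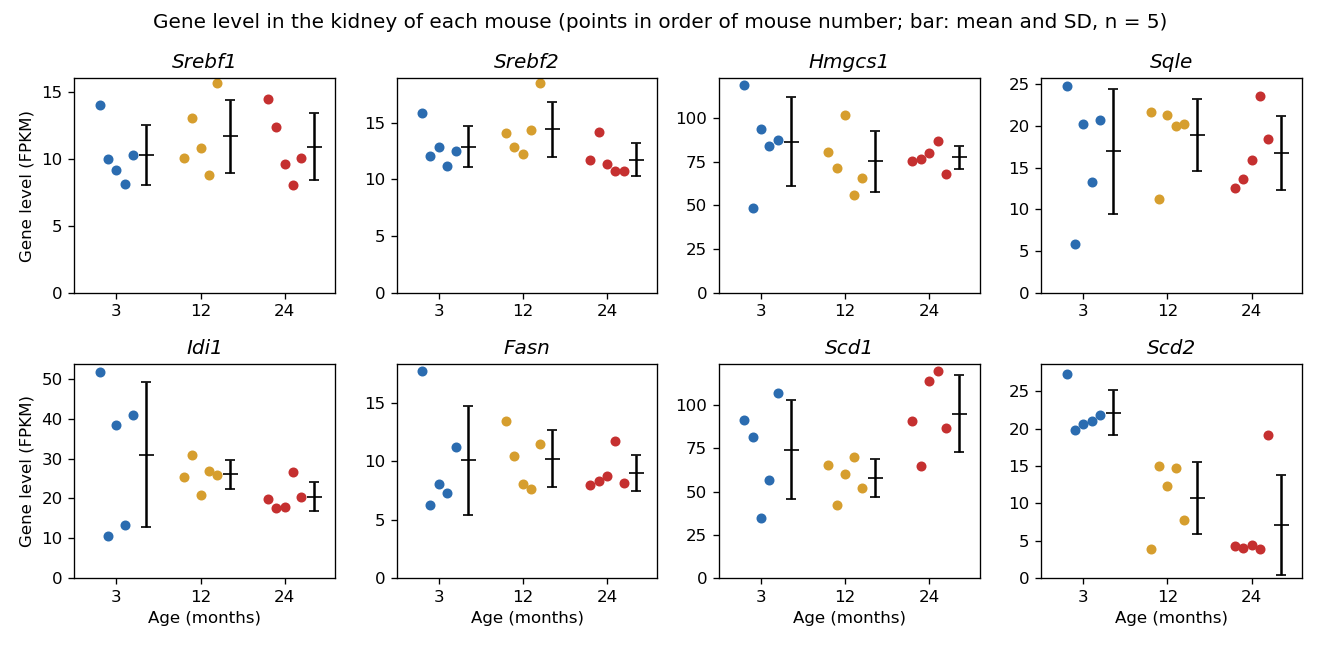
Level of each of the 8 genes (vertical axis, FPKM from 0) in each mouse at 3, 12 and 24 months (horizontal axis), with points in order of mouse number and bars for mean and SD of 5 mice. Scd2 lies between 19.8 and 27.3 FPKM in all 3-month-old mice and at 4.41 or below in 4 of the 5 24-month-old mice, and the 3-month-old mice spread widest for Idi1, Sqle and Fasn.

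Scd2 was the one gene of the 8 whose level differed between 3 and 24 months at an unadjusted p under 0.05. It encodes a stearoyl-CoA desaturase, which makes monounsaturated fatty acids for membranes and stored lipid. Its values at 3 months were 27.3, 19.8, 20.6, 21.03 and 21.9 FPKM in mice 5 to 9. At 12 months they were 3.83, 15.001, 12.4, 14.7 and 7.76 FPKM in mice 17 to 21, and at 24 months 4.33, 3.97, 4.41, 3.87 and 19.1 FPKM in mice 31 to 35. Every 12-month and every 24-month value thus lay below every 3-month value, although mouse 35 came close to the 3-month-old mice. The mean was 22.1 ± 3.00 FPKM (SD, n = 5) at 3 months and 7.13 ± 6.68 (SD, n = 5) at 24 months. On the log2(FPKM + 1) scale, which understates the change of low genes, the difference was -1.77 (SE 0.37) with a limma p of 0.000819, adjusted 0.0568 over 31755 genes. The exact 2-sided permutation test gave 0.00794, the smallest p that 5 against 5 mice allow. Of all genes tested between these ages, 3.47% were lower at an unadjusted p under 0.05, 0.265% were also lower by more than 1 on the log2 scale as Scd2 was, and 0.91% were lower without overlap. The adjusted p thus missed 0.05, and it passed in only 3 of 18 other fits. These were with genes under a mean of 1 FPKM removed (0.0348), with all 15 mice in one fit (0.040) and without mouse 35. In the remaining fits it stayed above 0.05, with 0.0911 after quantile normalization and at most 0.121. Without mouse 35 the difference was -2.16 with an adjusted p of 0.000208.

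Scd2 was already lower at 12 months. The 12-month mean was 10.7 ± 4.83 FPKM (SD, n = 5), a difference from 3 months of -1.10 (SE 0.31) on the log2(FPKM + 1) scale. Its limma p was 0.00551, adjusted 0.157, and the exact permutation p was again 0.00794. Among all genes 2.9% were lower at 12 than at 3 months at an unadjusted p under 0.05, and 0.667% were lower without overlap. From 12 to 24 months Scd2 differed by -0.67 (SE 0.47, adjusted p = 0.820, exact permutation p = 0.214), and the values of these ages overlapped. Both differences from 3 months rest on the same 3-month-old mice.

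Scd2 is listed with a single transcript, ENSMUST00000026221, on chromosome 19 (GRCm38, bases 44293676 to 44306864, plus strand, 6 exons). The transcripts of the table carry running numbers, and 1 number directly after this transcript was not among the rows used. Such a gap follows 11.7% of the rows. Whether reads of Scd2 were assigned to a transcript not analysed here was not tested. The neighbouring paralogue Scd1 shares an identical run of at most 147 bases with this transcript, and 145 of the 5406 windows of 50 bases of Scd2 also occur in Scd1. In mouse 35, where Scd2 was at 19.1 FPKM, Scd1 stood at 86.6 FPKM, and in the other 24-month-old mice at 64.6 to 120 FPKM. Whether reads of one were counted for the other was not tested. The paralogues Scd3 and Scd4 were low, at most 0.166 and 0.250 FPKM in any mouse. Fat cells express much Scd2, so their markers were read in the same mice. Over Adipoq, Plin1, Plin4, Cfd, Lep, Fabp4 and Cidec the sum ranged from 9.23 to 25.1 FPKM at 3 months, from 10.2 to 34.7 at 12 months and from 15.2 to 30.5 at 24 months, with 0 of the 7 different at an unadjusted p under 0.05 between any pair of ages. Adipoq and Plin1 were listed at 0 in the 3-month-old mice 6 and 7, in which Scd2 was at 19.8 and 20.6 FPKM. The part of fat cells in the differences of Scd2 was not tested.

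Scd1, the main stearoyl-CoA desaturase of liver and fat, was higher at 24 than at 12 months at an unadjusted p under 0.05. Its values were 91.5, 81.7, 34.7, 56.7 and 107 FPKM at 3 months, 65.3, 42.3, 59.9, 69.8 and 52.1 at 12 months, and 90.7, 64.6, 114, 120 and 86.6 at 24 months. The 24-month-old mice lay above the 12-month-old mice except that mouse 32, the lowest of them, lay under mice 17 and 20. The mean was 57.9 ± 10.9 FPKM (SD, n = 5) at 12 and 95.1 ± 22.3 (SD, n = 5) at 24 months, a difference of 0.70 (SE 0.19) on the log2(FPKM + 1) scale. The limma p was 0.00468 and the exact permutation p 0.0238, while the adjusted p was 0.668. Of all genes 3.07% were higher at 24 than at 12 months at an unadjusted p under 0.05, and 6.43% differed in either direction. Scd1 at 24 months did not differ from 3 months beyond the spread (0.42, SE 0.30, adjusted p = 0.573, exact permutation p = 0.230). It is listed with a single transcript, ENSMUST00000041331, on chromosome 19 (bases 44394451 to 44407709, minus strand).

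**Figure D2:**
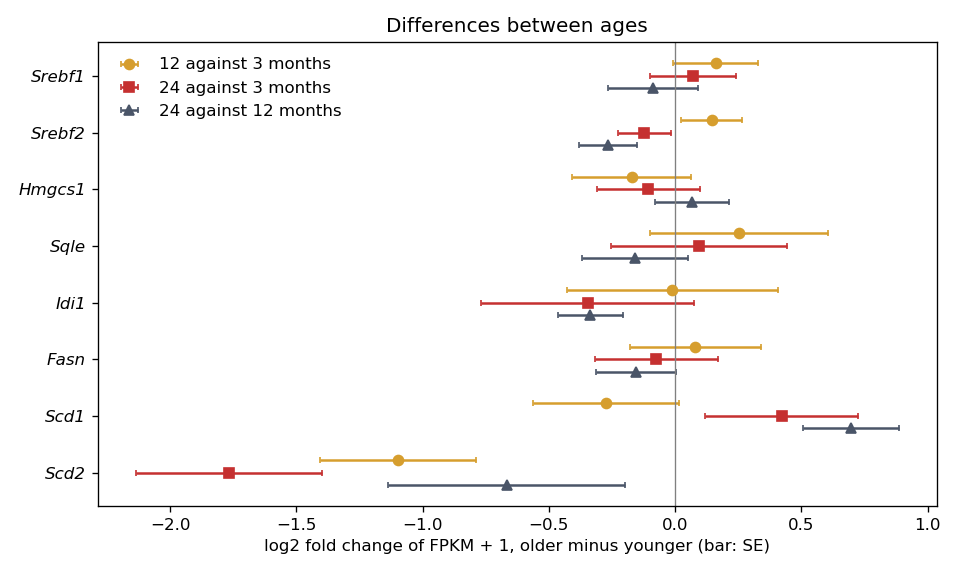
Difference of log2(FPKM + 1) between ages (horizontal axis, older minus younger, with SE bars) for the 8 genes (vertical axis), with one symbol per comparison. The differences of Scd2 from 3 months, at -1.10 and -1.77, lie farthest from 0, and the difference of Scd1 between 12 and 24 months is 0.70.

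For the sterol enzymes the spread among the 3-month-old mice exceeded the differences between the ages. Idi1 was at 51.8, 10.5, 38.5, 13.3 and 41.0 FPKM in mice 5 to 9, at 25.3, 30.98, 20.8, 26.95 and 25.9 at 12 months, and at 19.9, 17.6, 17.8, 26.7 and 20.2 at 24 months. The highest 3-month value was 4.95 times the lowest, against 1.49 times at 12 and 1.51 times at 24 months. Sqle was at 24.8, 5.80, 20.2, 13.2 and 20.8 FPKM at 3 months, at 21.7, 11.3, 21.3, 20.1 and 20.2 at 12 months, and at 12.5, 13.6, 15.9, 23.7 and 18.4 at 24 months. Mouse 6 was the lowest and mouse 5 the highest of all 15 mice for both genes. Hmgcs1 stood at 119, 48.3, 93.3, 83.9 and 87.4 FPKM at 3 months, at 80.6, 71.4, 102, 56.0 and 65.7 at 12 months, and at 75.3, 76.4, 80.1, 86.7 and 68.1 at 24 months. Here too mice 5 and 6 were the extremes of the 15. Its coefficient of variation was 29.3% at 3, 23.1% at 12 and 8.82% at 24 months.

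The means of these 3 enzymes did not differ between 3 and 24 months beyond this spread. On the log2(FPKM + 1) scale Hmgcs1 differed by -0.11 (SE 0.21, exact permutation p = 0.643), Sqle by 0.09 (SE 0.35, exact permutation p = 0.841) and Idi1 by -0.35 (SE 0.42, exact permutation p = 0.452). With mouse 6 left out, the lowest of its group, Hmgcs1 was lower at 24 months by 0.30 at an unadjusted limma p of 0.0351, adjusted 0.307, and the difference of Sqle turned to -0.22. Between 12 and 24 months Idi1 was lower, from 26.0 ± 3.64 to 20.5 ± 3.68 FPKM (SD, n = 5 each), a difference of -0.34 (SE 0.13). The limma p was 0.0277 and the exact permutation p 0.0556, with an adjusted p of 0.747. Among all genes 3.36% were lower at 24 than at 12 months at an unadjusted p under 0.05. The limma p of Idi1 exceeded 0.05 without mouse 18, 20, 32 or 33, and was 0.0862 on TPM, 0.0631 after quantile normalization and 0.368 with all 15 mice in one fit.

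Fasn, the synthase of the fatty acid route, was at 17.8, 6.22, 8.02, 7.26 and 11.2 FPKM at 3 months. At 12 months it was at 13.5, 10.5, 8.07, 7.64 and 11.5 FPKM, and at 24 months at 7.99, 8.30, 8.72, 11.7 and 8.18. Again mouse 5 was the highest and mouse 6 the lowest of the 15. The ages overlapped throughout, and Fasn differed by -0.07 (SE 0.24, exact permutation p = 0.833) between 3 and 24 months, by 0.08 (SE 0.26) between 3 and 12 and by -0.15 (SE 0.16) between 12 and 24 months.

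Among the 3-month-old mice the genes of the factors varied less, with a coefficient of variation of 21.6% for Srebf1 and 13.9% for Srebf2, against 44.2% for Sqle, 46.3% for Fasn and 58.6% for Idi1. Srebf1 was at 14.0, 10.0, 9.16, 8.14 and 10.3 FPKM at 3 months, at 10.1, 13.1, 10.8, 8.79 and 15.7 at 12 months, and at 14.5, 12.4, 9.63, 8.07 and 10.1 at 24 months. The ages overlapped, and the exact permutation p of Srebf1 was 0.698 between 3 and 24 months, 0.389 between 3 and 12 and 0.667 between 12 and 24. Srebf2 was at 15.9, 12.1, 12.9, 11.2 and 12.5 FPKM at 3 months, at 14.1, 12.9, 12.3, 14.3 and 18.5 at 12 months, and at 11.7, 14.2, 11.4, 10.7 and 10.8 at 24 months. Its 12-month values lay above the 24-month values other than that of mouse 32. The mean was 14.4 ± 2.45 FPKM (SD, n = 5) at 12 and 11.8 ± 1.43 (SD, n = 5) at 24 months, a difference of -0.27 (SE 0.11) on the log2(FPKM + 1) scale. The limma p was 0.0438, the adjusted p 0.764 and the exact permutation p 0.0476. The limma p exceeded 0.05 when any of mice 17, 20, 21, 31, 33, 34 and 35 was left out, and was 0.0802 on TPM and 0.0513 after quantile normalization. Srebf2 differed from 3 to 24 months by -0.12 (SE 0.10, exact permutation p = 0.302).

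The wider pathways were read from lists of genes of known role. Of 18 genes of sterol synthesis, 0 differed between 3 and 24 months at an unadjusted p under 0.05, beside 14.9% of all genes tested. With single mice left out, up to 2 were higher and up to 2 lower. The list's median difference was -0.06 on the log2(FPKM + 1) scale, and the median over all genes tested was 0.02. The smallest limma p between these ages belonged to Dhcr7, a late reductase of the route (0.21, exact permutation p = 0.0873), then to the desaturase Sc5d (0.27, exact p = 0.127) and mevalonate kinase Mvk (0.24, exact p = 0.0952). Between 3 and 12 months 2 were higher and 1 lower at an unadjusted p under 0.05, beside 14.3% of all genes, and none had an adjusted p under 0.05. The 2 were Mvk (0.32) and Dhcr7 (0.34), and the 1 was the reductase Tm7sf2 (-1.15), with exact permutation p of 0.0159, 0.0476 and 0.0238. Between 12 and 24 months 2 were higher and 2 lower at an unadjusted p under 0.05, beside 6.43% of all genes. None had an adjusted p under 0.05. Pmvk (0.28) and Tm7sf2 (0.87) were the higher, and Idi1 and Nsdhl (-0.63) the lower. With all 15 mice in one fit 1 was higher and 0 lower. Without mouse 18, 20, 32 or 35 the counts were 1 higher and 1 lower. Tm7sf2, Pmvk and Nsdhl were named after their values were seen.

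**Figure D3:**
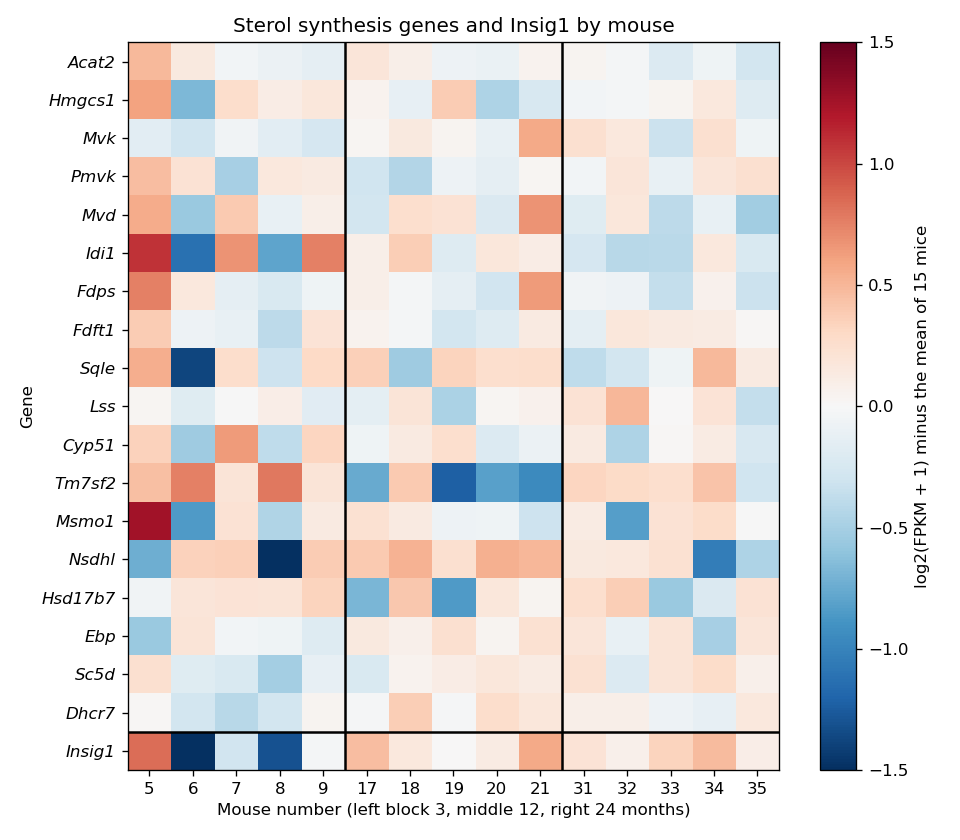
Levels of the 18 sterol synthesis genes and Insig1 (rows) in the 15 mice (columns), coloured by log2(FPKM + 1) minus the gene's mean over the 15 mice, with red for higher and blue for lower. Mouse 5 holds the highest value among the 3-month-old mice for 10 of the 18 genes and mouse 6 the lowest for 8.

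The spread among the 3-month-old mice was shared by many of these enzymes. The SD of log2(FPKM + 1) was larger at 3 than at 24 months for 14 of the 18 sterol synthesis genes (77.8%), beside 54.7% of the 13446 genes with a mean of at least 1 FPKM. The median SD of the list was 0.33 at 3 months, 0.20 at 12 and 0.25 at 24 months, against 0.24, 0.22 and 0.22 for all these genes. Within the 3-month-old mice, mouse 5 was highest for 10 of the 18 genes and mouse 6 lowest for 8. Insig1, which retains the SREBPs in the endoplasmic reticulum and is itself their target, stood at 18.3, 2.27, 7.85, 3.35 and 9.54 FPKM in mice 5 to 9 and between 9.84 and 15.03 FPKM in the 10 older mice. Msmo1, a demethylase of the sterol route, had the same order at its ends, with 23.4 FPKM in mouse 5 and 4.64 in mouse 6. These comparisons of spread were chosen after the values were seen and carry no test.

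**Figure D4:**
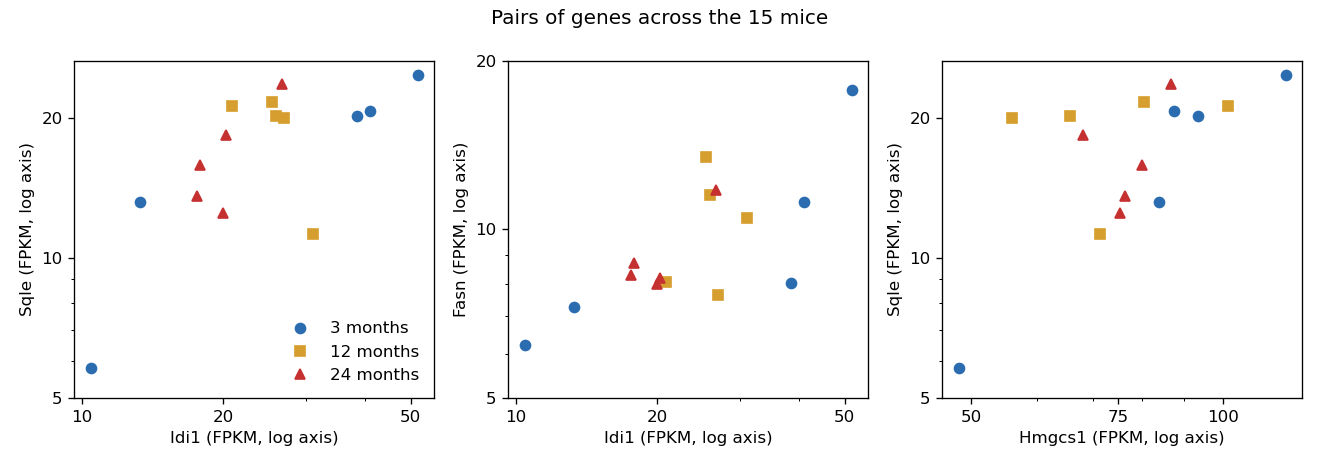
Sqle against Idi1, Fasn against Idi1, and Sqle against Hmgcs1 in each of the 15 mice (both axes FPKM on log scales), with a symbol for each age. The 3-month-old mice span the range from the lowest to the highest values of each pair, and Pearson's r is 0.704, 0.735 and 0.637 from left to right.

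Over the 15 mice, 2 of the 28 pairs of the 8 genes were correlated at an adjusted permutation p under 0.05. Idi1 and Fasn had a Pearson's r of 0.735 (permutation p = 0.00207, adjusted over 28 pairs 0.0405) and a Spearman's rho of 0.557 (permutation p = 0.0342, adjusted 0.239). Sqle and Idi1 had an r of 0.704 (permutation p = 0.00289, adjusted 0.0405) and a rho of 0.611 (permutation p = 0.0176, adjusted 0.164). After the mean of each age was subtracted, r was 0.734 for Idi1 with Fasn and 0.744 for Sqle with Idi1, but the adjusted permutation p was 0.214 for both. Leaving out the 2 mice farthest from the median of the first gene of the pair gave an r of 0.475 for Idi1 with Fasn, without mice 5 and 6, and of 0.747 for Sqle with Idi1, without mice 6 and 18. The relation of Idi1 with Fasn therefore rested in part on mice 5 and 6. For Sqle with Idi1 mouse 5 stayed in, so the 2 values do not compare how robust the pairs are. With mice ranked within each age, rho was 0.333 for Idi1 with Fasn (permutation p = 0.283) and 0.267 for Sqle with Idi1 (permutation p = 0.403). Hmgcs1 and Sqle had an r of 0.637 (permutation p = 0.0122, adjusted 0.0851), which was 0.198 without mice 5 and 6, so this r rested on them. Their rho was 0.639 (permutation p = 0.0122, adjusted 0.164). With mice ranked within each age it was 0.633 (permutation p = 0.0285, adjusted 0.266). Among the 3-month-old mice alone r was 0.923 for Sqle with Idi1, and among the 12-month-old mice -0.76, each over 5 mice and given without a test. Sqle and Fasn had an r of 0.620 (permutation p = 0.0152, adjusted 0.0851) and 0.665 without mice 6 and 18. Their rho was 0.696 (permutation p = 0.00508, adjusted 0.142). With mice ranked within each age it was 0.733 (permutation p = 0.00839, adjusted 0.181). Srebf1 and Srebf2 had an r of 0.613 (permutation p = 0.0137, adjusted 0.0851) and 0.610 without mice 21 and 31. The 7 pairs with Scd2 had an r between -0.251 and 0.246, with adjusted permutation p of 0.733 or above.

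The genes most like a member were taken by Pearson's r of log2(FPKM + 1) over the 15 mice among 13445 other genes with a mean of at least 1 FPKM, as a description. Idi1 was closest to Acsm3, a medium-chain acyl-CoA ligase (r = 0.942), to Odc1, ornithine decarboxylase (r = 0.937), and to the dipeptidase gene Cndp2 (r = 0.925). Sqle was closest to Cd55 (r = 0.911), Fuca2 (r = 0.845) and Mfsd2a (r = 0.815). Fasn was closest to Papss1 (r = 0.893), Dera (r = 0.833) and Gm21451 (r = 0.798), and Hmgcs1 to Vmn1r-ps11 (r = 0.820), Psme4 (r = 0.806) and Gtf2h5 (r = 0.799). For Scd2 the nearest were A1cf (r = 0.879), Wipf2 (r = 0.865) and Unc5c (r = 0.849), with r of 0.706, 0.782 and 0.572 after the mean of each age was subtracted, and for Scd1 Heg1 (r = 0.851), Thumpd3 (r = 0.844) and Fam120a (r = 0.824). Srebf1 was closest to Ggt6 (r = 0.856), Gm15512 (r = 0.835) and Plec (r = 0.833), and Srebf2 to the urate transporter gene Slc22a12 (r = 0.840), Psmd3 (r = 0.827) and Atxn2l (r = 0.815).

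Of 27 genes of fatty acid synthesis, elongation and desaturation, 4 were lower and 1 higher at 24 than at 3 months at an unadjusted p under 0.05, beside 14.9% of all genes, and none had an adjusted p under 0.05 (1.22% of all genes did). Only 2 were lower without mouse 8, 9, 33 or 34, and 3 were higher without mouse 5. Beside Scd2 these were Hacd2, a dehydratase of fatty acid elongation, at -0.49 (SE 0.11, adjusted p = 0.0657), the low Scd3 at 0.09 (SE 0.03, adjusted p = 0.218), the lipogenic regulator Thrsp at -0.61 (SE 0.25, adjusted p = 0.298) and the elongase Elovl7 at -0.16 (SE 0.07, adjusted p = 0.332). Hacd2 was at 17.1, 15.5, 15.9, 13.5 and 15.8 FPKM at 3 months and at 11.3, 9.51, 10.9, 13.6 and 8.98 FPKM at 24 months, with mouse 34 just above mouse 8. The median difference of the list was -0.08. Between 3 and 12 months 5 were lower and 1 higher, beside 14.3% of all genes, and between 12 and 24 months 2 were higher and 0 lower, beside 6.43%. With single mice left out these counts ranged from 3 to 6 lower and 0 to 2 higher, and from 1 to 3 higher and 0 to 2 lower.

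Among 12 genes of SREBP processing and its control, 1 was lower and 0 higher at 24 than at 3 months at an unadjusted p under 0.05. All genes gave 14.9%. With single mice left out, up to 2 were lower and up to 1 higher. The 1 was Rnf145, a ubiquitin ligase of the endoplasmic reticulum (-0.39, SE 0.12, adjusted p = 0.149). Rnf145 was at 18.4, 14.8, 17.8, 17.5 and 20.4 FPKM at 3 months and at 12.4, 15.3, 15.6, 10.5 and 13.2 FPKM at 24 months, so that mouse 6 alone overlapped the old mice. Mbtps2, a protease that releases the SREBPs, had the next smallest p (-0.26, adjusted p = 0.348). The list's median difference was -0.02. Between 3 and 12 months 0 of the 12 were lower or higher at an unadjusted p under 0.05, beside 14.3% of all genes. The median was 0.14, and with single mice left out up to 1 was higher and up to 1 lower. Between 12 and 24 months 1, Srebf2, was lower and 0 higher, beside 6.43% of all genes, with a median of -0.17. With single mice left out 0 to 2 were lower.

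Of 10 genes of sterol uptake, storage and export, 1 was higher and 0 lower at 24 than at 3 months at an unadjusted p under 0.05. All genes gave 14.9%, and without mouse 5 or 9 the count was 2 higher. The 1 was Scarb1, the HDL receptor, which differed by 0.29 (SE 0.10, adjusted p = 0.205). Scarb1 was at 5.11, 3.74, 4.58, 5.21 and 4.69 FPKM at 3 months and at 5.29, 6.19, 6.67, 5.15 and 6.17 FPKM at 24 months, so that mouse 34 alone lay within the range of the young mice. Soat1, which esterifies cholesterol, and the exporter Abca1 followed with 0.24 (adjusted p = 0.388) and -0.38 (adjusted p = 0.464). The list's median difference was -0.06. Of 8 genes of glycerolipid synthesis 2 were lower and 0 higher, beside 14.9% of all genes, with a median of -0.07. They were the phosphatidate phosphatase gene Lpin2 (-0.28, SE 0.08, adjusted p = 0.161), whose ages did not overlap (0.91% of all genes were lower without overlap), and Gpam, the first acyltransferase (-0.32, SE 0.11, adjusted p = 0.190). The acyltransferases Dgat2 (0.25, adjusted p = 0.492) and Dgat1 (-0.20, adjusted p = 0.493) followed.

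Lipid synthesis follows the time of day in many tissues, and clock genes differed between the ages in these libraries. Of 12 clock genes, 6 were higher and 3 lower at 24 than at 3 months at an unadjusted p under 0.05, beside 14.9% of all genes, and 2 and 2 at an adjusted p under 0.05, beside 1.22%. Arntl was between 8.30 and 16.7 FPKM at 3 months and between 0.510 and 3.72 FPKM at 24 months, and Dbp was between 0.0624 and 2.14 FPKM at 3 months and between 6.44 and 23.7 FPKM at 24 months. Of the 2 B lineage markers Cd79a and Jchain, both were higher at 24 than at 3 months at an unadjusted p under 0.05. Of all genes 14.9% differed at this limit in either direction. The 2 markers summed to 1.13 to 3.20 FPKM at 3 and 3.82 to 11.6 FPKM at 24 months. Of 6 adrenal cortex markers, 2 were higher at 24 than at 3 months at an unadjusted p under 0.05, Star and Mc2r. Again 14.9% of all genes differed at this limit in either direction. Star was at 1.05 to 1.75 FPKM at 3 and at 1.87 to 3.24 FPKM at 24 months. Mc2r was low, at 0.0192 to 0.126 FPKM at 3 and at 0.226 to 0.709 FPKM at 24 months. Cyp11a1, Cyp11b1, Cyp11b2 and Cyp21a1 were near 0, at most 0.0303, 0.0107, 0.0200 and 0.0401 FPKM in any mouse. The 6 summed to 1.18 to 1.79 FPKM at 3, 1.99 to 2.63 at 12 and 2.13 to 3.96 FPKM at 24 months. Star made up most of each sum. Mc2r also passed an adjusted p of 0.05 at 12 months (0.0448), beside 0.25% of all genes. The fibroblast markers Col1a1 and Pdgfrb were both higher at 12 than at 3 months at an unadjusted p under 0.05. Their sums were 15.9 to 20.8 against 7.74 to 15.8 FPKM, and 14.3% of all genes differed at this limit in either direction. Of the 2 principal cell markers Aqp2 and Aqp3, 1 was lower at 12 than at 3 months at this limit, and 0 differed between 3 and 24 months. They summed to 39.3 to 163 FPKM at 3, 36.3 to 63.8 at 12 and 30.1 to 75.5 FPKM at 24 months. At 24 months Pdgfrb, Pecam1 of endothelium and Cd3e of T cells were higher than at 3 months at that limit. Each was 1 of 2 markers of its cell type, beside 14.9% of all genes. Of 4 proximal tubule markers Slc5a2 alone differed at that limit. It was lower without overlap (-0.56, SE 0.13), as were 0.91% of all genes. The part of the clock and marker genes in the differences of Scd2 and of the listed genes was not tested.

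Isoforms were then examined, with the reservation that transcripts of one gene share reads and are not independent. None of the 41 isoforms had an adjusted p under 0.05 in any comparison (0.0192% of all transcripts did between 3 and 24 months, 0.00481% between 3 and 12 and 0.00559% between 12 and 24). At an unadjusted p under 0.05, 4 differed between 3 and 24 months, 5 between 3 and 12 and 6 between 12 and 24 months, beside 7.9%, 7.46% and 4.47% of all transcripts tested.

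Most of Hmgcs1, 70.6% of its FPKM over the 15 mice, was the annotated ENSMUST00000179869 (chromosome 13, bases 119690462 to 119708086, 10 exons). The assembled MSTRG.10649.2 added 16.0% and MSTRG.10649.1 13.4%. The latter, with 8350 bases the longest, reaches to base 119712948, where it overlaps Nim1k on the opposite strand. MSTRG.10649.1 was at 22.4, 12.8, 15.2, 7.61 and 19.2 FPKM at 3 months, at 8.95, 9.73, 7.68, 8.43 and 7.42 at 12 months and at 9.42, 9.70, 5.62, 8.51 and 7.95 at 24 months. Mouse 8 alone among the 3-month-old mice overlapped the older ages. The difference was -0.77 (SE 0.26, adjusted p = 0.503) from 3 to 24 and -0.72 (SE 0.25, adjusted p = 0.577) from 3 to 12 months, each with an exact permutation p of 0.0397.

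Srebf2 was mainly the annotated ENSMUST00000023100 (72.7% of its FPKM, chromosome 15, bases 82147266 to 82205376, 19 exons). This isoform was lower at 24 months than at 3 months (-0.28, SE 0.11, exact permutation p = 0.0238) and than at 12 months (-0.38, SE 0.12, exact permutation p = 0.0159). Its means were 9.85 ± 1.20, 10.6 ± 1.41 and 7.93 ± 0.772 FPKM (SD, n = 5 each) in order of age. The assembled MSTRG.12943.3, which has 12 exons and ends within the gene at base 82196691, was highest at 12 months. Its values were 0.215, 0.102, 0.113, 0.303 and 0.784 FPKM at 3 months, 1.13, 0.899, 1.05, 2.10 and 1.72 at 12 months, and 0.104, 0.0834, 0.762, 0.182 and 0.200 at 24 months. The 12-month-old mice overlapped neither other age, and ages did not overlap for 1.85% of transcripts between 3 and 12 and 0.782% between 12 and 24 months. Its limma p was 0.00115 against 3 months (0.87, SE 0.19, adjusted 0.342) and 0.000816 against 24 months (-0.91, SE 0.19, adjusted 0.838). MSTRG.12943.1 was higher at 24 than at 3 months, with means of 1.53 ± 0.422 and 0.769 ± 0.507 FPKM (0.54, SE 0.20, exact permutation p = 0.0317). MSTRG.12943.2 took 13.9% of the gene's FPKM.

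Srebf1 (chromosome 11, bases 60199089 to 60222581, minus strand) was divided over 14 isoforms. Over the 15 mice ENSMUST00000020846 took 19.3%, the assembled MSTRG.5881.4 18.1%, ENSMUST00000129869 15.3% and ENSMUST00000134660 12.1%. The shares by age were 27.2% at 3, 14.0% at 12 and 17.5% at 24 months for ENSMUST00000020846 and 17.3%, 29.7% and 6.41% for MSTRG.5881.4. MSTRG.5881.4 ranged from 0.538 to 5.69 FPKM among the 12-month-old mice and from 0.0660 to 1.69 FPKM among the 24-month-old mice (-1.20, SE 0.47, exact permutation p = 0.0556). The low ENSMUST00000154620 was higher at 24 than at 12 months (0.36, SE 0.15, exact permutation p = 0.0714), and ENSMUST00000136215 was listed at 0 in all 3-month-old mice and averaged 0.0668 FPKM at 12 months (exact permutation p = 0.167). One running number inside the span of this gene is not among the rows used, and Rai1 overlaps its end on the opposite strand. With the annotated transcripts alone, Srebf1 differed by -0.08 from 3 to 12 months, against 0.16 with all its isoforms.

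Idi1 (chromosome 13, bases 8885501 to 8892451) was mainly ENSMUST00000169314, 87.3% of its FPKM, with ENSMUST00000177400 at 8.85%. ENSMUST00000169314 was lower at 24 than at 12 months (-0.35, SE 0.15, exact permutation p = 0.0476), and the low ENSMUST00000177447 was lower at 12 than at 3 months (-0.43, SE 0.19, exact permutation p = 0.0794). Sqle (chromosome 15, bases 59315066 to 59331192) was mainly ENSMUST00000022977 (60.0%), followed by MSTRG.12530.1 (22.5%) and MSTRG.12530.5 (10.2%). Fasn (chromosome 11, bases 120805846 to 120824547) was mainly ENSMUST00000055655 (74.6%), and MSTRG.7518.2 (17.7%) was listed at 0 in 6 of the 15 mice. No isoform of Sqle or Fasn had an unadjusted p under 0.05 in any comparison.

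**Figure D5:**
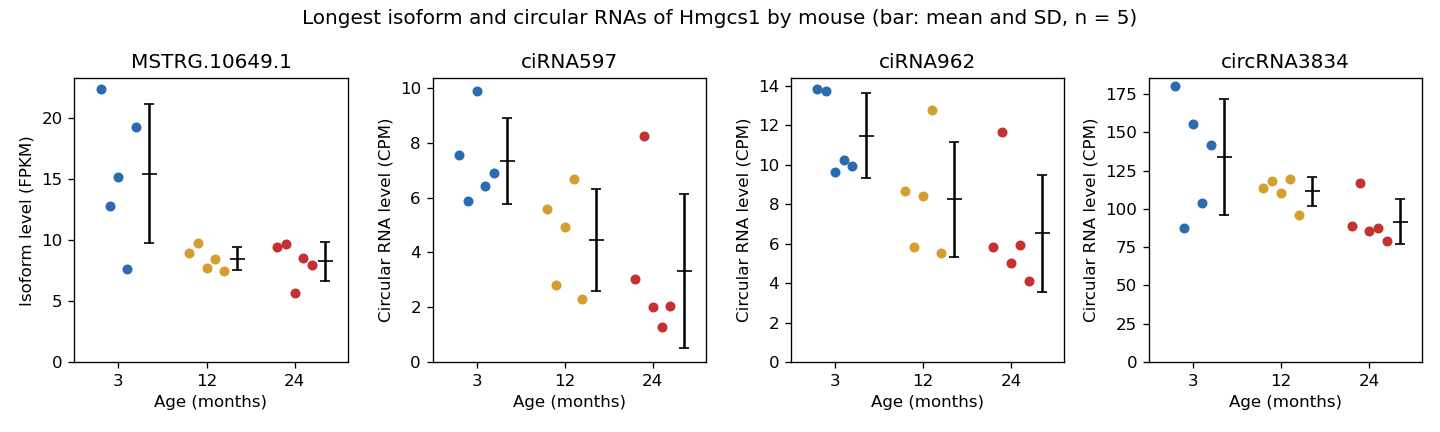
Level of the longest Hmgcs1 isoform (left panel, FPKM) and of the 3 Hmgcs1 circular RNAs (other panels, CPM, counts scaled to the library total) in each mouse at 3, 12 and 24 months, with bars for mean and SD of 5 mice. Mouse 32 is the highest of the 24-month-old mice for all 3 circular RNAs, with 116.9 CPM for circRNA3834.

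Circular RNAs are closed loops cut from the same primary transcripts, and 12 of those deposited came from these genes: 6 from Srebf2, 3 from Hmgcs1, 2 from Sqle and 1 from Srebf1. Hmgcs1 gave the one call. The intronic ciRNA962 (chromosome 13, bases 119705512 to 119706388) was at 13.8, 13.7, 9.63, 10.2 and 9.94 CPM at 3 months, at 8.66, 5.84, 8.40, 12.8 and 5.52 at 12 months and at 5.85, 11.6, 5.003, 5.94 and 4.12 at 24 months. All 24-month-old mice other than mouse 32 lay below the 3-month-old mice. It fell by 0.83 on the log2 scale from 3 to 24 months (edgeR quasi-likelihood test, adjusted p = 0.0381). Of 11924 circular RNAs tested 13.3% had an adjusted p under 0.05 between these ages. This call was lost when any of mice 5, 6, 8, 9, 31, 33, 34 and 35 was left out, at adjusted p from 0.0513 to 0.0957. The intronic ciRNA597 averaged 7.34 CPM at 3 and 3.33 CPM at 24 months (-1.17, adjusted p = 0.0591), and circRNA3834, of 2 exons, 134 and 91.6 CPM (-0.55, adjusted p = 0.0597). The span of ciRNA597 (bases 119700634 to 119701075) lies inside that of circRNA3834 (bases 119700508 to 119701240), so they are not independent. DESeq2 called all 3, as did edgeR without mouse 32. Between 3 and 12 months 0 of the 12 had an adjusted p under 0.05 by edgeR and 0 by DESeq2, beside 6.63% of all by edgeR. At an unadjusted p under 0.05 edgeR gave 2, ciRNA597 and ciRNA962, beside 23.7% of all. Between 12 and 24 months the count was again 0 by both tools, beside 0.738% of all by edgeR, and 2, circRNA1453 of Srebf1 and circRNA3834, had an unadjusted p under 0.05, beside 16.9% of all. The 6 circles of Srebf2 overlap in span and share exons, 4 of them starting at base 82175097. The most abundant, circRNA3350, averaged 78.5, 84.8 and 85.1 CPM in order of age.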

How the data were processed

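Kidney RNA of 15 male mice was sequenced, 5 each at 3, 12 and 24 months. Mice were grouped by the age in their labels, since the titles begin with 3M at all ages. The labels describe ribosomal RNA removal and a stranded kit, whereas the paper describes oligo(dT) beads. The authors trimmed reads with Cutadapt, aligned them with HISAT2 to GRCm38 (Ensembl release 88) and assembled transcripts with StringTie, and the labels also list TopHat2. They deposited FPKM and mean coverage (a signal) per transcript. The deposited coverage served only to derive aligned bases per library. For circular RNAs the authors deposited estimated counts and FPKM, and how these were called is not given in the sources used here. The estimated counts summed to between 6974494 and 9889971 per mouse, were rounded, and carry counting error beside the spread between mice.

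Gene values were sums of FPKM over transcripts with class code =, c, j or o. Because FPKM are not counts, genes and transcripts above 0 in at least 1 mouse were compared with limma 3.58.1 (lmFit, eBayes with trend) on log2(FPKM + 1), 2 ages at a time, with Benjamini-Hochberg adjustment over all features. An adjusted p is edgeR's for circular RNAs and limma's otherwise. Single genes were also compared by exact 2-sided permutation tests. Circular RNAs above 0 in at least 5 mice were tested with edgeR 4.0.16 (quasi-likelihood, TMM), with DESeq2 1.42.0 as the alternative, in R 4.3.3. Correlations used 100000 permutations in Python 3.11.15 with scipy 1.17.1. FPKM keep no read counts, so precision comes from the spread between 5 mice. Scripts were tested on simulated data.

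Described by rule were the 8 genes, isoforms with a mean of at least 1 FPKM or p under 0.05, their circular RNAs, the 4 smallest p of each pathway list between 3 and 24 months and every list gene past an adjusted p of 0.05, and the 3 genes most like each. The genes and lists were chosen with earlier results of these data known. Some genes of the pathway lists are not reported here and were left out of the lists after the 4 smallest p were taken. Insig1 and Msmo1 were added after their values were seen. Alternatives were another pseudocount, a level filter, TPM, quantile normalization, one fit of all mice, a robust prior and other transcript classes. Each mouse was also left out in turn. The study's fold limit, an absolute log2 fold change above 1, was applied beside an unadjusted p under 0.05 and without the study's q limit. The requirement of an adjusted p was added after seeing the data.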

Additional observations from a re-analysis of the deposited data

Results flagged for a closer look

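Single mice stood apart from the others of their age in 11 of 60 groups of 5 mice (8 genes and 12 circular RNAs at 3 ages), by the gap to the nearest mouse relative to the range. Chance alone flags about 1 in 20 groups, and circles of one gene share exons. Scd2 stood at 27.3 FPKM in mouse 5 at 3 months and at 19.1 FPKM in mouse 35 at 24 months, where the other 4 mice lay between 3.87 and 4.41 FPKM. Sqle was at 11.3 FPKM in mouse 18 at 12 months, Fasn at 11.7 FPKM in mouse 34 at 24 months and Srebf2 at 14.2 FPKM in mouse 32 at 24 months.

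Mouse 32 was also high at 24 months for all 3 circular RNAs of Hmgcs1, with 8.24 CPM for ciRNA597, 11.6 CPM for ciRNA962 and 116.9 CPM for circRNA3834, while its Hmgcs1 gene level of 76.4 FPKM lay within the 68.1 to 86.7 FPKM of the other old mice. Mouse 21 was high at 12 months for 3 overlapping circles of Srebf2, with 77.3 CPM for circRNA1622, 117.4 CPM for circRNA3350 and 72.5 CPM for circRNA4103. Its Srebf2 gene level of 18.5 FPKM was the highest of the 15 mice. No cause of these values was tested.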

How the results depend on the processing

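The number of the 8 genes with an unadjusted p under 0.05 was 1, 1 and 3 for 24 against 3, 12 against 3 and 24 against 12 months. It ranged from 1 to 2, from 1 to 2 and from 1 to 3 with each mouse left out. It was 2 for 24 against 3 months with annotated transcripts alone. For 24 against 12 months it was 1 on TPM, 1 after quantile normalization and 0 with the study's fold limit. At an adjusted p it was 0 in each comparison. The isoform counts of 4, 5 and 6 ranged from 2 to 6, from 3 to 6 and from 3 to 7 with a mouse left out, and were 2 and 3 for 12 against 3 and 24 against 12 months above a mean of 1 FPKM. The circular RNA counts of 1, 0 and 0 ranged from 0 to 3, stayed at 0 and ranged from 0 to 1, and DESeq2 gave 3 for 24 against 3 months. The count of 2 correlated pairs was 0 with ages centred, 0 by Spearman's rho and 1 with r of at least 0.5 without the 2 farthest mice.

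Signs turned only for differences that had not passed. With annotated transcripts alone these were Srebf1 (-0.084 for 12 against 3 and 0.26 for 24 against 12 months), Hmgcs1 (-0.0047) and Sqle (0.12) for 24 against 12 months. With a mouse left out the ranges for 24 against 3 months were -0.029 to 0.18 for Srebf1, -0.30 to 0.023 for Hmgcs1, -0.22 to 0.26 for Sqle and -0.21 to 0.14 for Fasn. For 12 against 3 months they were -0.062 to 0.42 for Sqle, -0.32 to 0.23 for Idi1 and -0.052 to 0.29 for Fasn, and for 24 against 12 months -0.19 to 0.016 for Srebf1 and -0.030 to 0.18 for Hmgcs1. The cause was not tested. Scd2 kept its sign and an unadjusted p under 0.05 against 3 months in all 18 other fits of each comparison. No paired analysis was possible because the ages share no replicate numbers. Scaling moved the median of all genes by less than 0.1 on the log2 scale.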
